A study of Rattus norvegicus with 40 samples.

Results

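The preconditioning effect in rat cerebral cortex was compared between 2 sets of samples, those numbered 1 to 5 and those numbered 6 to 10, over 18625 probe sets. These were 20 of the 40 arrays of the series. Each array held total RNA from cerebral cortex, either after hypoxic preconditioning, an exposure to low oxygen, or after a sham preconditioning in normal oxygen, with 5 arrays per group and number run. The labels give no strain, age, oxygen level or length of exposure, and they do not say what the number runs stand for, so no condition was assigned to them. They also do not say whether each array was a separate animal, so each p-value here reflects variation among these arrays alone and may partly be technical. For each probe set the effect in a run was the mean log2 intensity of the 5 preconditioned arrays minus that of the 5 sham arrays, with values under 16 set to 16. In bulk tissue, fewer cells of a type and less RNA per cell cannot be told apart. The measurement of interest was the difference of differences, the effect in numbers 1 to 5 minus the effect in numbers 6 to 10. It is positive where preconditioned arrays stood further above their shams in numbers 1 to 5.

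Cells sense low oxygen through prolyl hydroxylases that mark the alpha subunits of the hypoxia-inducible factors (HIF) for destruction while oxygen is present. In low oxygen the subunits persist, enter the nucleus and bind the core motif ACGTG in hypoxia response elements, which raises genes for glycolysis, glucose transport, vessel growth, mTOR restraint and histone demethylation. In the brain a mild exposure of this kind is known to make the tissue more tolerant of a later injury. Stress hormones and neuronal activity, which raise glucocorticoid targets and immediate early genes, are further known inputs to such a response.

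Preconditioned arrays 5 and 6, 1 in each run, stood apart from the other 18. On the first principal component of these 20 arrays they lay at 30.1 and 42.2, against -12.8 to 9.21 for the others. Their median log2 intensities were 5.59 and 5.53, against 5.72 to 5.82, and limma's array weights were 0.343 and 0.279, against 0.734 to 1.47. The 3'/5' ratio, which climbs when RNA is degraded, was 1.51 to 1.90 over the actin controls and 0.892 to 0.996 over those of GAPDH, with arrays 5 and 6 inside both ranges. Of the neuron markers listed for cortex, 20 of 21 passed the intensity filter. By Eif2s3y and Xist, transcripts of the Y chromosome and of the inactive X, 2 of the 5 arrays in each of the 4 groups were male. Each run holds 1 of the arrays that stand apart.

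Most preconditioning effects could not be told apart between the runs. A moderated test of the difference of differences (limma, Benjamini-Hochberg adjusted over all probe sets, threshold 0.05) called 10 of 18625 probe sets, or 0.0537%, with 8 positive (0.0430%) and 2 negative (0.0107%). At an unadjusted p under 0.05 there were 1125, or 6.04%. By comparison, 445 probe sets (2.39%) were called within numbers 1 to 5, 230 higher (1.23%) and 215 lower (1.15%) after preconditioning, and 413 (2.22%) within numbers 6 to 10, 204 higher (1.10%) and 209 lower (1.12%). Of these, 87 were called higher in both runs and 28 lower in both. With preconditioned arrays 5 and 6 left out, the counts were 345 in numbers 1 to 5 (208 higher, 137 lower) and 265 in numbers 6 to 10 (158 higher, 107 lower). The split into higher and lower depends on the scaling: in numbers 1 to 5 quantile normalization gave 262 higher and 149 lower and median centring 347 and 85, and in numbers 6 to 10 median centring gave 409 and 81. The difference of differences has a larger error than either effect, with a median SE of 0.16 on the log2 scale against 0.11. Its values were centred near 0, with a median of -0.00 and 90% of probe sets between -0.33 and 0.34.

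**Figure D1:**
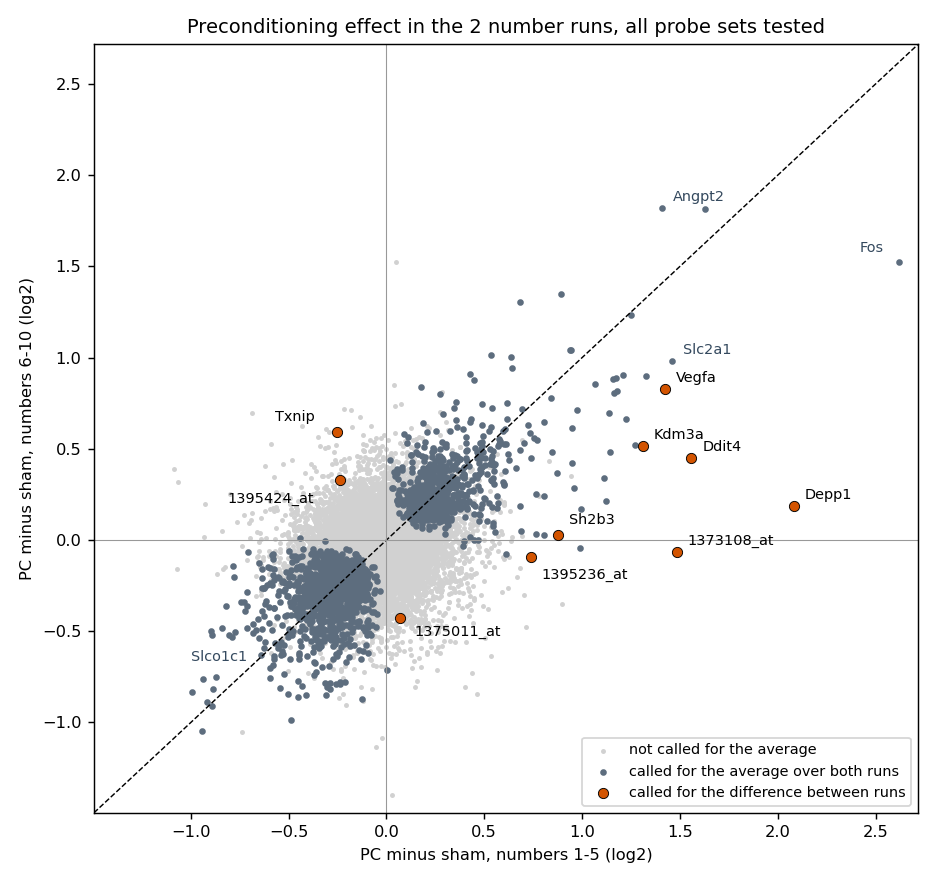
Preconditioned (PC) minus sham difference (log2) in numbers 1 to 5 on the x axis and in numbers 6 to 10 on the y axis, 1 point per probe set, with equal effects on the dashed line. The 10 probe sets called for the difference between the runs are orange, and 7 of them lie right of the line among rises that were larger in numbers 1 to 5.

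The named genes called for the difference were 3 known HIF targets, Ddit4, Kdm3a and Vegfa, that rose in both runs but more in numbers 1 to 5, and 2 genes, Depp1 and Sh2b3, whose rise passed the test in numbers 1 to 5 alone. Txnip went the other way. The remaining 4 probe sets carry no gene name in the platform annotation, and no name is given to them here.

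Ddit4 (REDD1, probe set 1368025_at), a stress-induced inhibitor of mTORC1 that is a target of both HIF and the glucocorticoid receptor, had the smallest p-value of the named genes. Preconditioned arrays 1 to 5, from lowest to highest, had intensities of 972, 981, 1002, 1151 and 1158, and their shams 311, 311, 374, 394 and 404. Those of numbers 6 to 10 read 470, 494, 521, 524 and 594, and their shams 348, 368, 378, 392 and 418. Every preconditioned array was above every sham in both runs, and the preconditioned arrays of numbers 1 to 5 were all above those of numbers 6 to 10. The effect was 1.56 ± 0.08 in numbers 1 to 5 (log2, SE, 5 arrays per group), a 2.94-fold rise, and 0.45 ± 0.08 in numbers 6 to 10, a 1.37-fold rise. The difference of differences was 1.11 ± 0.11, with a 95% interval of 0.88 to 1.33 (adjusted p = 2.06e-08).

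Kdm3a (probe set 1370975_at) encodes a histone H3 lysine 9 demethylase whose gene is a HIF target. Its intensities after preconditioning were 283, 295, 300, 311 and 312 in numbers 1 to 5, and their shams 111, 112, 122, 128 and 133. For numbers 6 to 10 they were 134, 152, 165, 171 and 200, and their shams 107, 108, 116, 120 and 120. Preconditioned and sham arrays did not overlap in either run. The rise was 2.48-fold in numbers 1 to 5 (1.31 ± 0.09, log2) and 1.43-fold in numbers 6 to 10 (0.51 ± 0.09). These effects differed by 0.80 ± 0.13 (95% interval 0.54 to 1.05, adjusted p = 0.000652).

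Vegfa (probe set 1373807_at), the growth factor that drives vessel sprouting and permeability, kept the largest effect in numbers 6 to 10 among the called genes. From lowest to highest, preconditioned arrays 1 to 5 read 450, 535, 548, 556 and 599, and their shams 175, 185, 201, 211 and 230. Preconditioned arrays 6 to 10 read 355, 372, 374, 380 and 404, and their shams 192, 196, 212, 220 and 244. All preconditioned arrays again lay above all shams in both runs. The fold rise went from 2.68 in numbers 1 to 5 to 1.78 in numbers 6 to 10, a difference of 0.59 ± 0.12 on the log2 scale (95% interval 0.35 to 0.84, adjusted p = 0.0262). A further probe set of the gene, 1370081_a_at, gave a difference of 0.56 ± 0.16 that did not pass (adjusted p = 0.343).

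Depp1 (probe set 1372213_at), a FOXO-regulated gene linked to autophagy and oxidative stress, had the largest difference of all the probe sets called. Its preconditioned arrays of numbers 1 to 5 read 133, 137, 169, 200 and 223, and their shams 31.6, 32.8, 35.5, 50.4 and 53.9. Those of numbers 6 to 10 read 30.2, 44, 51.2, 52.2 and 56.6, and their shams 23.9, 37.3, 44.8, 48.9 and 54.2. In numbers 1 to 5 the groups were far apart, while in numbers 6 to 10 they overlapped and 1 preconditioned array exceeded all shams. Its effect was 2.08 ± 0.21, a 4.24-fold rise, in numbers 1 to 5 and 0.19 ± 0.21 in numbers 6 to 10 (adjusted p = 0.695). The difference was 1.90 ± 0.29, with a 95% interval of 1.30 to 2.49 (adjusted p = 0.000634).

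Sh2b3 (LNK, probe set 1367723_a_at) is an adaptor protein that restrains cytokine receptor and JAK signalling. For this gene preconditioned arrays 1 to 5 read 165, 190, 194, 197 and 208, and their shams 89.3, 92.2, 104, 105 and 132. Arrays 6 to 10 read 109, 120, 151, 152 and 158, and their shams 127, 131, 132, 132 and 148. The groups were separate in numbers 1 to 5, and in numbers 6 to 10 the preconditioned arrays fell on both sides of the shams, 3 above and 2 below all of them. Its effect was 0.88 ± 0.09 in numbers 1 to 5 and 0.03 ± 0.09 in numbers 6 to 10, a difference of 0.85 ± 0.13 (95% interval 0.58 to 1.12, adjusted p = 0.000652).

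Upstream sequence of the called genes was read from RefSeq promoters (assembly GRCr8), the 250 bases before an annotated start, position -1 being the last of them. Of the 6 named genes called, 5 had a promoter in that table. The motifs searched on both strands were the hypoxia response element (HRE) core ACGTG, the AP-1 site TGACTCA, the CRE TGACGTCA and the serum response element, and overlapping matches were allowed. Ddit4 and Ldha are shown because both hold the HRE core, the first with effects that differed between the runs and the second, described later, with near-equal ones, and Depp1 because it had the largest difference and no match. Matches are in capitals.
Ddit4, chr20:28437038-28437287, minus strand: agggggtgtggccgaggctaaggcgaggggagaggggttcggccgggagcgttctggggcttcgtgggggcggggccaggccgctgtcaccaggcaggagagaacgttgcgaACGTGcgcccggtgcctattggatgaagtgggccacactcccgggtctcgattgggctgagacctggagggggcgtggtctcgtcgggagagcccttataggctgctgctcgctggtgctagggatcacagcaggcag
Ldha, chr1:106507842-106508091, plus strand: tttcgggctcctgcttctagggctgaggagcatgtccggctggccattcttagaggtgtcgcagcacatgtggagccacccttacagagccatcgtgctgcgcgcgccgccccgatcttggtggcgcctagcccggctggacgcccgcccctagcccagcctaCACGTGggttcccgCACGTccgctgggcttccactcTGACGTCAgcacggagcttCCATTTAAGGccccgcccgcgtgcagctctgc
Depp1, chr4:151583121-151583370, plus strand: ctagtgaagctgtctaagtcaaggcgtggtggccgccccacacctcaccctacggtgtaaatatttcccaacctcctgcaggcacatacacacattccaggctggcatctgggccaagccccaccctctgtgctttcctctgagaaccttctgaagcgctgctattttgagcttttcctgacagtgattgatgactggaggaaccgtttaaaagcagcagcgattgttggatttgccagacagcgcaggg
The HRE core of Ddit4 starts at -138. Ldha has matches that start at -87 and -86, which overlap, and at -73, beside a CRE at -51 and a serum response element at -32. Among the other called genes, 1 of the Kdm3a starts holds an AP-1 site at -128, and Sh2b3 and Vegfa hold no match in this window. The HRE core is found in 16.6% of all 33469 promoters, the AP-1 site in 4.05%, the CRE in 1.59% and the serum response element in 1.5%. Of the 7 promoters of the called genes 1 (14.3%) holds an HRE core, near the share of all promoters. Of the 10 promoters of the named near-equal genes described later, 3 (30%) do. Of the 28 measured HIF targets with a promoter in the table, 17 hold an HRE core, and 17 of their 30 promoters (56.7%) do. These matches describe the letters in the window and do not show binding.

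Probe set 1373108_at, unnamed here, had the smallest p-value of all. The first 5 preconditioned arrays read 292, 313, 332, 346 and 376, and their shams 102, 110, 118, 130 and 134. The other 5 read 122, 133, 150, 152 and 163, and their shams 127, 139, 159, 164 and 166. No preconditioned array of numbers 6 to 10 exceeded all shams, while all 5 did in numbers 1 to 5. The effect was 1.48 ± 0.10 in numbers 1 to 5 and -0.07 ± 0.10 in numbers 6 to 10 (adjusted p = 0.799), a difference of 1.55 ± 0.15 (adjusted p = 6.81e-09). Probe set 1395236_at, also unnamed, followed the same pattern with 0.74 ± 0.11 against -0.09 ± 0.11 (difference 0.83 ± 0.16, adjusted p = 0.0146).

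Txnip (probe set 1371131_a_at) encodes a thioredoxin-binding arrestin that limits glucose uptake and is induced by glucose. Sorted by size, preconditioned arrays 1 to 5 read 269, 274, 331, 360 and 441, and their shams 322, 376, 379, 437 and 467. Preconditioned arrays 6 to 10 read 462, 495, 606, 647 and 720, and their shams 360, 365, 376, 389 and 432. In numbers 6 to 10 every preconditioned array was above every sham, while in numbers 1 to 5 the groups overlapped and 2 preconditioned arrays lay below all shams. Its effect was -0.25 ± 0.12 in numbers 1 to 5 (adjusted p = 0.280) and 0.59 ± 0.12 in numbers 6 to 10 (adjusted p = 0.00358). The difference of differences was -0.85 ± 0.17 (95% interval -1.19 to -0.50, adjusted p = 0.0263). Arrdc4, a related arrestin looked up after the Txnip value was seen, gave -0.66 ± 0.18 and did not pass (adjusted p = 0.258).

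The remaining called probe sets are unnamed. Preconditioned arrays of 1375011_at read 249 to 323 in numbers 6 to 10, below all shams at 367 to 399, while in numbers 1 to 5 they read 346 to 425 against 343 to 410. It fell by 0.43 on the log2 scale in numbers 6 to 10 and gave 0.07 ± 0.07 in numbers 1 to 5 (adjusted p = 0.669), with a difference of 0.50 ± 0.10 (adjusted p = 0.0198). For 1395424_at the difference was -0.57 ± 0.11 (adjusted p = 0.0262), with effects of -0.24 ± 0.08 and 0.33 ± 0.08, of which the latter passed its own test (adjusted p = 0.0197).

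**Figure D2:**
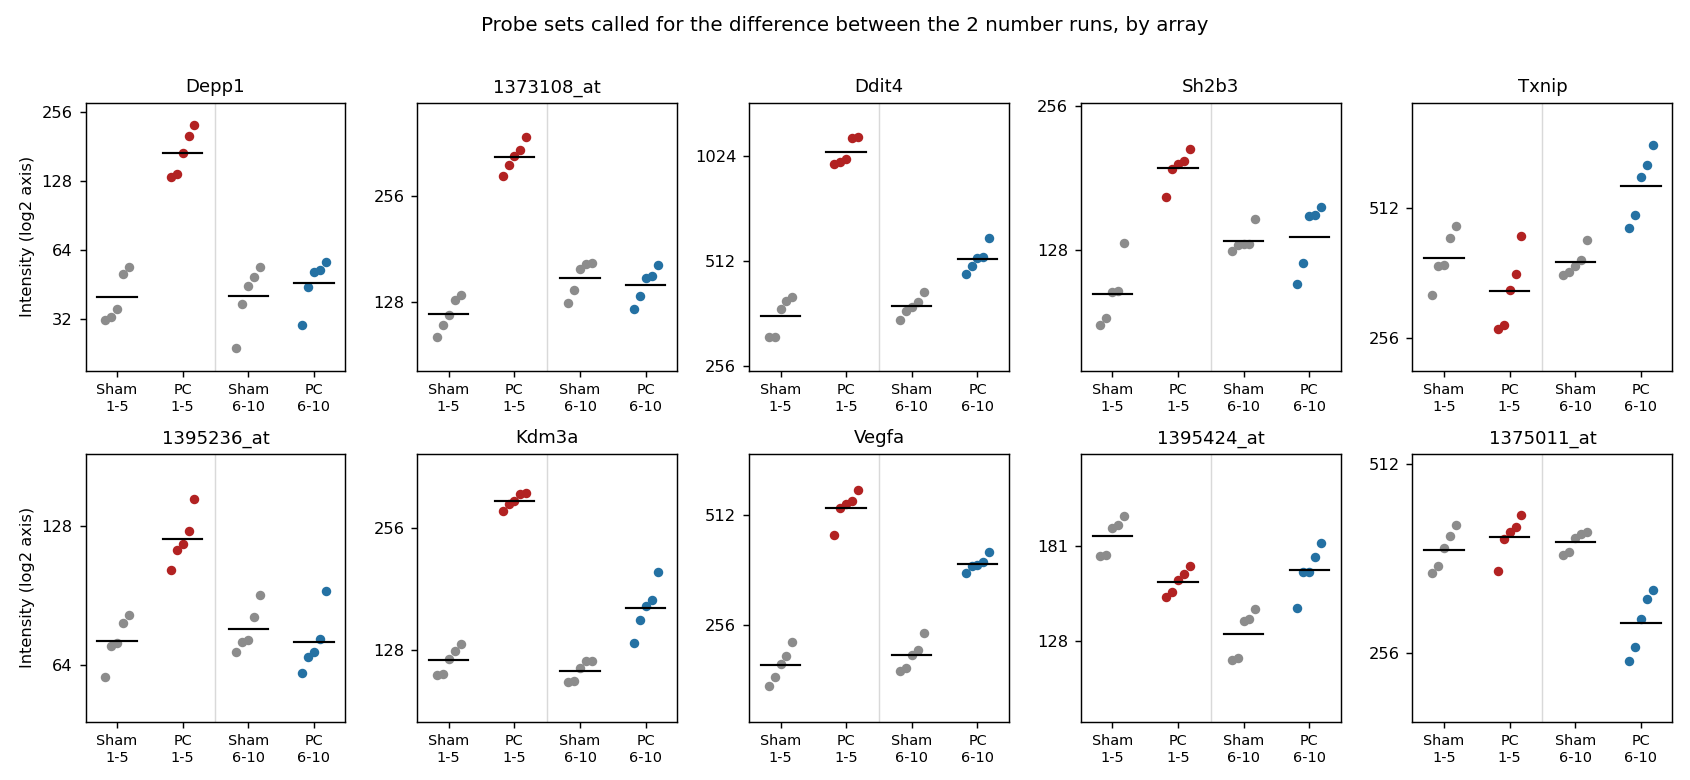
Intensity on a log2 axis of each array for the 10 probe sets called for the difference between the runs, with grey for sham, red for preconditioned arrays 1 to 5, blue for preconditioned arrays 6 to 10, and a bar at the geometric mean of 5 arrays. Ddit4, Kdm3a and Vegfa were above sham in both runs, Depp1 and Sh2b3 only in numbers 1 to 5 without overlap, and Txnip only in numbers 6 to 10 without overlap.

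A difference of differences can come from either arm, so it was split into the preconditioned and the sham arrays. Between the runs 742 probe sets (3.98%) differed among preconditioned arrays and 234 (1.26%) among shams. Without preconditioned arrays 5 and 6 these counts were 290 and 403, and leaving out 1 array at a time took them from 411 (without preconditioned array 6) to 839 and from 71 (without sham 10) to 296. For 8 of the 10 called probe sets the preconditioned arrays differed between the runs and the shams did not pass. Depp1 was 1.88 ± 0.21 higher in preconditioned arrays 1 to 5 than in 6 to 10 and -0.02 ± 0.21 in shams. Ddit4 gave 1.02 ± 0.08 and -0.09 ± 0.08, Kdm3a 0.88 ± 0.09 and 0.09 ± 0.09, and Vegfa 0.51 ± 0.08 and -0.09 ± 0.08. Txnip was lower by 0.81 ± 0.12 in preconditioned arrays 1 to 5, with 0.03 ± 0.12 in shams. Sh2b3 differed in both arms and in opposite directions, by 0.48 ± 0.09 in preconditioned arrays (adjusted p = 0.00229) and by -0.37 ± 0.09 in shams (adjusted p = 0.0391). The difference of 1395424_at lay in the shams, at 0.51 ± 0.08 (adjusted p = 0.000486), with -0.06 ± 0.08 in preconditioned arrays. The shams of 1373108_at moved by -0.35 ± 0.10, which missed the threshold (adjusted p = 0.0854).

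**Figure D3:**
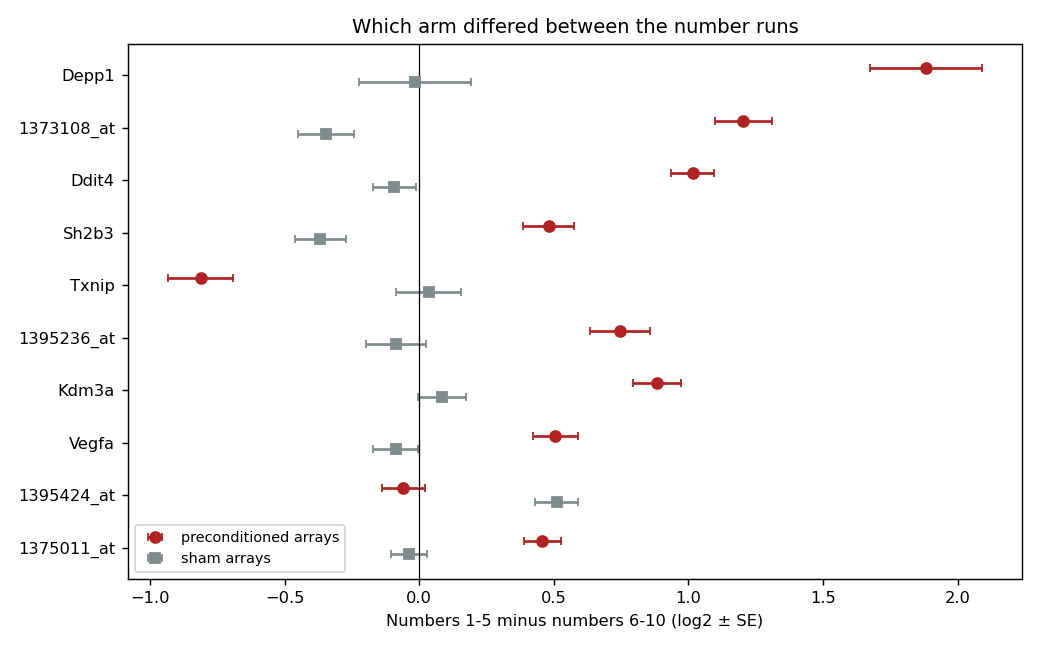
Numbers 1 to 5 minus numbers 6 to 10 (log2, with SE) among preconditioned arrays (red circles) and among sham arrays (grey squares) for the 10 called probe sets. The shams lie near 0 except for Sh2b3 and 1373108_at on the left and 1395424_at on the right, the last of which moved in shams alone.

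Leaving out 1 array at a time, Ddit4, Depp1, Kdm3a, Sh2b3 and 1373108_at passed in all 20 fits, with a highest adjusted p of 0.00281 among them. Probe set 1395236_at passed in 19 and was lost without preconditioned array 3 (adjusted p = 0.0592). Vegfa passed in 7 of 20, with adjusted p up to 0.103, and was lost without any of preconditioned arrays 1, 3, 4, 6, 7, 8 and 9 or shams 1, 3, 5, 6, 8 and 9. Txnip also passed in 7 of 20, with adjusted p up to 0.110, and was lost without any of preconditioned arrays 1, 3, 4, 6, 8 and 10 or shams 3, 4, 5, 7, 8, 9 and 10. The call of 1375011_at held in 14 fits (lost without preconditioned arrays 1, 3 and 6 or shams 3, 5 and 9) and that of 1395424_at in 11 (lost without preconditioned arrays 1, 4, 8 and 9 or shams 1, 3, 4, 7 and 8). Fitted on the 20 arrays alone, without the spread of the other 20, the test called 4 probe sets: Ddit4, Depp1, Kdm3a and 1373108_at. Without preconditioned arrays 5 and 6 it called 13, among them all 10, and for the named genes the difference was then 0.65 for Vegfa, 0.73 for Kdm3a, 0.82 for Sh2b3, 1.10 for Ddit4, 1.83 for Depp1 and -0.91 for Txnip.

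Adm and Ankrd37, a vasodilator peptide gene and a further HIF target, lay under the filter on mean intensity (31.9) with means of 20.1 and 28.8 over the 40 arrays, and were tested only in a fit without that filter. Adm read 43.3, 54.4, 61.2, 67.5 and 96.0 in preconditioned arrays 1 to 5 and 3.41 to 19.8 in their shams. In numbers 6 to 10 it read 10.8 to 26.6 in preconditioned arrays and 3.26 to 17.2 in shams. Only the preconditioned arrays of numbers 1 to 5 stood clear of the rest, with 0 of 5 under the floor of 16 against 2 or 3 of 5 in the other groups. The difference of differences was 1.66 ± 0.19 (adjusted p = 3.49e-06 over all 31042 probe sets), a value set in part by the floor. Ankrd37 read 69.6 to 133 against 15.7 to 35.0 in numbers 1 to 5 and 33.3 to 55.6 against 4.18 to 29.3 in numbers 6 to 10, and its difference of 1.51 ± 0.30 missed the threshold (adjusted p = 0.0516).

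To ask which effects held, probe sets were chosen on the mean of the effects of both runs, which with equal group sizes is independent of their difference and favours neither run. By this mean 1709 probe sets were called (9.18%), 708 higher (3.80%) and 1001 lower (5.37%), and without preconditioned arrays 5 and 6, 516 higher and 468 lower. This split moved with the scaling too: quantile normalization gave 683 higher and 647 lower, and median centring, which moves the mean effect by 0.07, gave 1561 higher and 364 lower. Of the 1709, 7 differed with a larger effect in numbers 1 to 5, all of them rises, and 1 differed with a larger effect in numbers 6 to 10, a fall (1375011_at, whose mean effect did not pass without preconditioned arrays 5 and 6, adjusted p = 0.0843). A further 1168 (68.3%) were near equal, meaning that the 95% interval of the difference lay within 0.5 of 0. Another 533 (31.2%) were not separated, meaning that the interval reached past 0.5 on at least 1 side and no difference was called. The near-equal class had a median mean effect of 0.23 in size, under that bound, so a small effect present in 1 run alone could count as near equal. Of the 741 with a mean effect under 0.25 in size, 700 were near equal. The count was 447 of 809 at 0.25 to 0.5, 21 of 146 at 0.5 to 1 and 0 of 13 at 1 or more. By sign alone, 859 effects were larger in numbers 1 to 5 and 850 in numbers 6 to 10. Among the 13 probe sets with a mean effect of at least 1, all of them rises, 10 were larger in numbers 1 to 5, with a median difference of 0.30, and among the 146 with a mean effect of 0.5 to 1 the count was 41 against 29 for rises (median 0.06) and 31 against 45 for falls (median -0.04). Without preconditioned arrays 5 and 6, 984 were called for the mean, 654 were near equal, and 559 were near equal with and without these arrays.

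The named genes with the largest near-equal effects were 8 that rose and 2 that fell for the mean of both runs. Where a pair of values follows a gene, here and below, they are the log2 effects in numbers 1 to 5 and then in numbers 6 to 10. Igfbp3, which binds insulin-like growth factors, rose by 0.84 ± 0.13 in numbers 1 to 5 and 0.78 ± 0.13 in numbers 6 to 10, and its difference lay between -0.30 and 0.43 (95% interval). Ldha, which turns pyruvate into lactate, rose by 0.60 and 0.53. Its preconditioned arrays read 2374, 2408, 2417, 2586 and 3638 in numbers 1 to 5 and 2441, 2562, 2587, 2709 and 3922 in numbers 6 to 10, against 1605 to 1861 and 1764 to 2180 in shams. The highest array of each run is preconditioned array 5 or 6, and without both the rises were 0.49 and 0.41. Sgk1, a kinase induced by glucocorticoids, rose by 0.62 and 0.47, and Errfi1, a feedback inhibitor of the EGF receptor, by 0.61 and 0.53. The clotting factor gene Vwf, expressed by endothelium, rose by 0.49 and 0.54.

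Slco1c1, which carries thyroid hormone into the brain, had the largest near-equal fall and little spread. Preconditioned arrays 1 to 5 read 446, 469, 470, 482 and 524, and their shams 690, 701, 704, 723 and 744. Preconditioned arrays 6 to 10 read 459, 476, 484, 485 and 487, and their shams 701, 718, 725, 782 and 787. The groups were apart in both runs by nearly the same amount. It fell by 0.58 in numbers 1 to 5 and by 0.63 in numbers 6 to 10, a difference of 0.06 ± 0.09 with a 95% interval of -0.12 to 0.24. Atf7ip, a chromatin factor that partners the SETDB1 methyltransferase, fell by 0.57 and by 0.56. Its further probe sets gave -0.60 and -0.45 (1382070_at), -0.90 and -0.50 (1375704_at) and -0.51 and -0.51 (1395687_at), with no difference called. Cnn2 and Vcl, which bind actin, and Tbl2 completed the list, with differences of -0.05, -0.23 and 0.04. A further probe set of Tbl2, 1385356_at, showed no rise, at -0.02 and 0.03 (adjusted p of the mean effect 0.988). Of the 10 genes, 9 were also near equal without preconditioned arrays 5 and 6, and Vcl was then not separated, with a difference of -0.33.

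**Figure D4:**
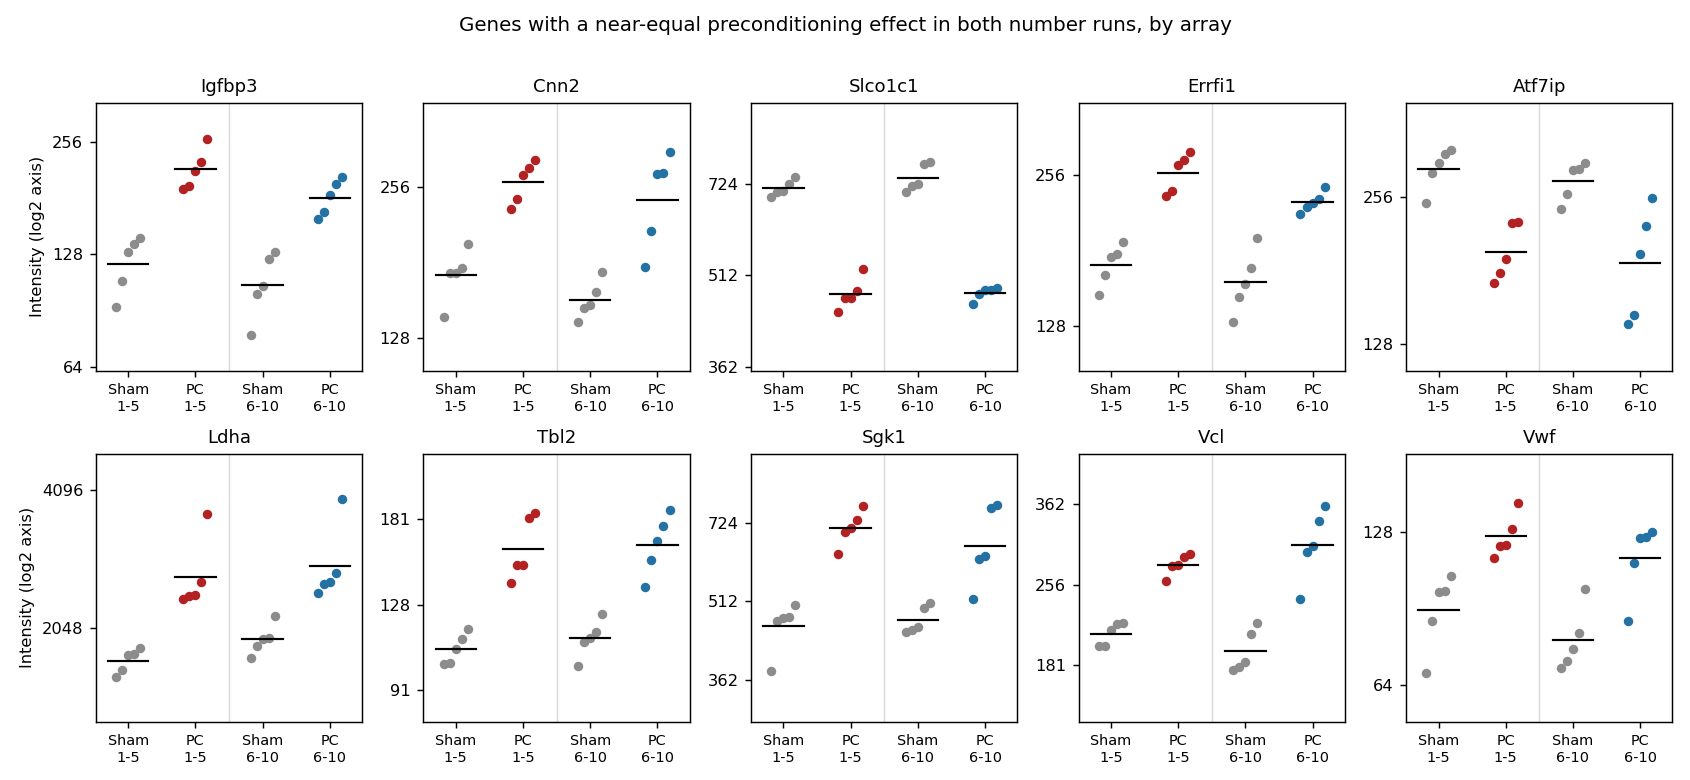
Intensity on a log2 axis of each array for the 10 named genes with the largest near-equal effects, with grey for sham, red for preconditioned arrays 1 to 5, blue for preconditioned arrays 6 to 10, and a bar at the geometric mean of 5 arrays. The geometric means of Slco1c1 and Atf7ip lie below those of sham in both runs, and those of the other 8 genes above, while single arrays overlap for Atf7ip and Vwf in numbers 6 to 10.

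The named genes with the largest mean effects that were not separated were Fos, Angpt2, Slc2a1, Per1 and Apln. Fos, an AP-1 subunit and immediate early gene, rose by 2.62 ± 0.26 and 1.52 ± 0.26, and its difference of 1.10 ± 0.37 did not pass (adjusted p = 0.555). Its preconditioned arrays spread widely, from 105 to 269 in numbers 1 to 5 and from 84.0 to 320 in numbers 6 to 10. Angpt2, an endothelial ligand that destabilises vessels, rose by 1.41 ± 0.18 and 1.82 ± 0.18, with a difference of -0.41 ± 0.26 and an interval of -0.93 to 0.11. Slc2a1 (GLUT1), which carries glucose across the vessel wall into brain, rose by 1.46 ± 0.08 and 0.98 ± 0.08, from 189 to 237 in shams to 523 to 629 in numbers 1 to 5, and from 207 to 242 to 379 to 534 in numbers 6 to 10. Its difference of 0.48 ± 0.11 missed the threshold (adjusted p = 0.146) and passed without preconditioned array 10 (0.54, adjusted p = 0.0237). Apln, a vascular peptide, gave 1.33 and 0.90 (difference 0.43 ± 0.16, adjusted p = 0.666), and its further probe set 1368258_at 0.74 and 0.58 (difference 0.15 ± 0.21). Per1, a clock gene and glucocorticoid target, gave 0.89 and 1.35, with 3 of 5 shams of numbers 6 to 10 under the floor.

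The HIF targets leaned to numbers 1 to 5. Of 33 measured, 3 were called for the difference, Ddit4, Kdm3a and Vegfa, and 28 had a positive value, with a median of 0.14. Over all 10304 genes 5 were called positive and 1 negative, 5309 values were positive and the median was 0.00. At an unadjusted p under 0.05 there were 9 of the 33 HIF targets and 598 of all genes. For the mean of both runs 24 HIF targets were higher and 1, Tfrc, was lower. Within runs, 23 were higher in numbers 1 to 5 (median effect 0.48) and 16 in numbers 6 to 10 (median 0.31), with 0 lower by limma in either. Over all genes, 153 were higher and 135 lower in numbers 1 to 5, and 115 and 152 in numbers 6 to 10. Of the 24 that were higher for the mean, 21 had the larger rise in numbers 1 to 5, with a median difference of 0.19, against 240 of 407 and 0.03 among all genes that rose. The mean log2 level of the list was 8.18 to 8.25 in preconditioned arrays 1 to 5, 7.95 to 8.14 in preconditioned arrays 6 to 10, and 7.60 to 7.71 in all shams. Without preconditioned arrays 5 and 6 the 3 calls were again 3, with 29 values positive, and under quantile normalization and median centring 28 were positive.

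Several HIF targets with metabolic, mitochondrial and sensing roles were near equal: Ldha, Pdk1 (which closes pyruvate entry to the mitochondrion, 0.48 and 0.39), the mitochondrial protein Higd1a (0.41 and 0.31), the mitophagy receptors Bnip3 (0.32 and 0.27) and Bnip3l (0.21 and 0.18), the oxygen sensor Egln1 (0.37 and 0.31), the stress protein Ndrg1 (0.36 and 0.34) and the MYC antagonist Mxi1 (0.30 and 0.31). In all 11 were near equal and 11 not separated. Some of the latter had large differences that did not pass, such as the glycolytic activator Pfkfb3, at 0.99 and 0.17 (adjusted p of the difference 0.324, and 0.0489 without preconditioned array 10), the repressor Bhlhe40, at 1.14 and 0.48 (0.705), and the sensor Egln3, at 0.51 and 0.11 (0.582). Angptl4, a lipoprotein lipase inhibitor, and Plod2, a collagen hydroxylase, had the largest values in the other direction, with differences of -0.31 and -0.26, neither of which passed.

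**Figure D5:**
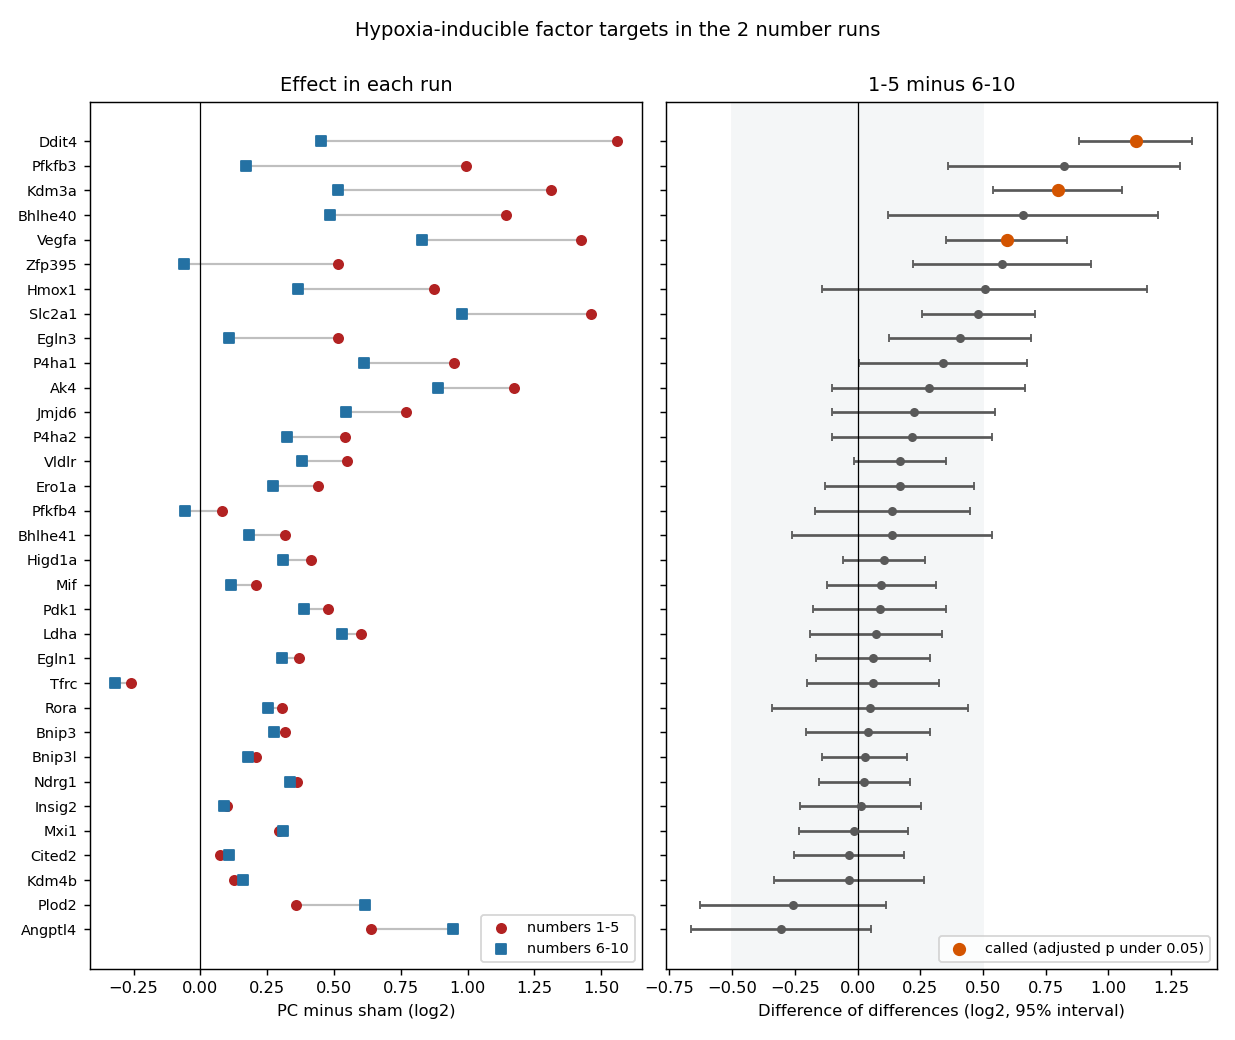
Left, the preconditioned minus sham difference (log2) of each of the 33 measured HIF targets in numbers 1 to 5 (red circles) and numbers 6 to 10 (blue squares). Right, their difference of differences with its 95% interval, ordered by size, with the 3 called genes in orange and the span from -0.5 to 0.5 shaded. Of the 33, 28 lie right of 0.

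Immediate early genes, which neurons switch on within minutes of a stimulus, had 9 members higher for the mean of both runs and 0 lower. Of 26 measured, 0 were called for the difference by limma (7 at an unadjusted p under 0.05). All 9 that rose had larger effects in numbers 1 to 5 by sign, with a median difference of 0.36. The whole list did not lean as clearly: 15 of 26 differences were positive, with a median of 0.10, against 5309 of all 10304 genes. Its median effect was 0.23 in numbers 1 to 5 and 0.29 in numbers 6 to 10. In numbers 1 to 5, 8 were higher, and in numbers 6 to 10, 3. These run counts were 9 and 5 with quantile normalization, 9 and 6 with median centring, and 8 and 3 without preconditioned arrays 5 and 6. Over all genes, 153 and 115 were higher in the runs, and 407 were higher and 693 lower for the mean. The difference had an unadjusted p under 0.05 for 598 of them. None of the 9 immediate early genes that rose was near equal, and all were not separated. Dusp1, a phosphatase that switches off MAP kinases, gave 0.81 and 0.03 (adjusted p of the difference 0.319), Zfp36, which destabilises mRNA, 1.11 and 0.34 (0.582), and Egr1 1.21 and 0.91 (0.919). Myc, a growth-promoting transcription factor, gave -0.32 and 0.28 (0.237). With the sample number as a replicate block the differences of Dusp1 and Myc passed (adjusted p = 0.0410 each).

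Glucocorticoid-responsive genes had similar median effects in both runs. Of 23 measured, 16 were higher and 2 lower for the mean of both runs, 8 were called higher in numbers 1 to 5 (median effect 0.47) and 12 in numbers 6 to 10 (median 0.45), and 1, Ddit4, was called for the difference. Over all 10304 genes, 407 were higher and 693 lower for the mean, 153 higher in numbers 1 to 5 and 115 in numbers 6 to 10. The 2 run counts of the list were 12 and 12 with quantile normalization, 12 and 13 with median centring, and 8 and 8 without preconditioned arrays 5 and 6. Near equal were 8 of the 18 called for the mean, among them Sgk1, Errfi1, Glul, Nfkbia and Cdkn1a, against 775 of 1100 over all genes. The lean to numbers 6 to 10 was largest in Mt2A, a metal-binding metallothionein, at 0.18 and 0.84 (adjusted p of the difference 0.454), while Cebpd, a transcription factor of acute stress, gave 1.27 and 0.52 (0.593).

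Angiogenesis and endothelial genes showed 0 calls for the difference by limma among 29 and 20 measured (2 and 1 at an unadjusted p under 0.05). Vegfa, which was called, was counted among the HIF targets and is in neither of these lists. For the mean of both runs, 12 angiogenesis genes were higher and 4 lower. Over all 10304 genes, 407 were higher and 693 lower for the mean, and 598 had an unadjusted p under 0.05 for the difference. The receptors Kdr (0.40 and 0.53) and Tek (-0.32 and -0.51), Vwf and the basement membrane collagen gene Col4a1 (0.29 and 0.34) were near equal. Plat, the tissue plasminogen activator, gave 1.14 ± 0.09 and 0.70 ± 0.09 and Flt1, a VEGF receptor, 1.16 and 0.80, with differences that did not pass (adjusted p = 0.371 and 0.941). In the FOXO and mTOR list of 19, Depp1 was called positive and Txnip negative, while Foxo3 itself rose by 0.54 and 0.44 and was near equal. Ddit4, an mTORC1 inhibitor called positive, is not in this list and was counted with the HIF and glucocorticoid lists. Among 21 glycolysis genes 9 were higher for the mean and 0 were called for the difference by limma (2 at an unadjusted p under 0.05). Slc2a3, the neuronal glucose transporter, gave 0.47 in numbers 1 to 5 and -0.00 in numbers 6 to 10 (adjusted p of the difference 0.237).

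Some cell type markers differed between the runs in both arms alike, so that their difference of differences was small. Microglia and macrophage markers (12 measured) had a median of -0.38 in preconditioned arrays and -0.30 in shams for numbers 1 to 5 minus numbers 6 to 10. Astrocyte markers (17) gave -0.24 and -0.25 and oligodendrocyte markers (12) -0.18 and -0.13. Immature neuron markers (10) ran the other way, at 0.20 and 0.18. Among shams, 3 astrocyte markers, 1 microglia and macrophage marker and 1 oligodendrocyte marker were called lower, and 2 immature neuron markers higher, in numbers 1 to 5, where over all 10304 genes 51 were lower and 88 higher. The mean log2 level of the microglia and macrophage markers ran from 5.96 to 6.37 over the arrays of numbers 1 to 5 and from 6.33 to 6.96 over those of numbers 6 to 10. The median differences of differences of these lists lay between -0.10 and 0.05, and the part of these markers in the results above was not tested.

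For ribosomal proteins, cell cycle genes and the remaining marker lists 0 members were called for the difference by limma, and at an unadjusted p under 0.05 there were 0 of 21 ribosomal protein genes and 1 of 42 cell cycle genes. Over all 10304 genes there were 598 at that level. All 7 ribosomal protein genes called higher for the mean (of 21 measured) were near equal, but the list's mean level reached 12.4 and 12.3 at its highest in the preconditioned groups, against at most 11.9 in shams, and without preconditioned arrays 5 and 6 only 1 was called higher. With quantile normalization 0 were called higher by limma, and the list's median mean effect was 0.02 against 0.18. Of 42 cell cycle genes 4 were lower for the mean, with Ccnd1 at -0.53 and -0.22, where 693 of all 10304 genes were. The count was 1 without these arrays and 2 with quantile normalization or median centring. Marker lists of neurons, interneurons, pericytes, meninges and ependyma had median differences between -0.05 and 0.03, with 0 calls by limma. The 4 measured choroid plexus markers had a median of -0.58, led by Ttr at -1.48 (adjusted p = 0.834). Their mean level ran from 5.59 to 7.68 in shams 6 to 10 and from 7.19 to 7.65 in the other 3 groups, and its part in the results above was not tested. Gfap, an astrocyte filament gene, gave 0.53 and 1.02 (difference -0.48 ± 0.26, adjusted p = 0.845).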

How the data were processed

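The authors deposited 1 table that gives each array's linear intensity for every probe set. Software and scaling were not given in the sources used here. Control probe sets (57) were removed from 31099, values under 16 were set to 16, log2 was taken, and probe sets at or above the 40th percentile of mean log2 over all 40 arrays (intensity 31.9) were kept. At the floor lay 25.7% of all values and 0.149% of those kept. Gene names came from the platform annotation: 14273 kept probe sets had 1 gene (10304 genes), 309 several and 4043 none. A gene was represented by its kept probe set with the highest mean.

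A limma 3.58.1 fit (R 4.3.3, moderated variances following a trend on mean level) of 8 group means over 40 arrays, 32 residual degrees of freedom, gave all contrasts, with two-sided tests and Benjamini-Hochberg adjustment over 18625 probe sets. The fit was tested on simulated data. The number of arrays limits the precision. Named were called genes, the 10 largest near-equal and 5 largest not-separated effects, up to 3 called members of each list, and 35 fixed genes. Other list members and Arrdc4 were named as examples after their values were seen. Genes, lists and motifs were chosen with earlier results of these data known.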

Additional observations from a re-analysis of the deposited data

Results flagged for a closer look

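The 10 differences between the runs that passed the test were 1.90 for Depp1, 1.55 for 1373108_at, 1.11 for Ddit4, 0.85 for Sh2b3, 0.83 for 1395236_at, 0.80 for Kdm3a, 0.59 for Vegfa, 0.50 for 1375011_at, -0.57 for 1395424_at and -0.85 for Txnip (log2).

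Among the named genes, single arrays were far from the other 4 of their group, by Dixon's criterion at 0.71, in 32 of 344 groups, where chance gives about 1 in 20. Of these, 10 were preconditioned array 5 and 11 preconditioned array 6. Preconditioned array 5 had the highest intensity of its group for Ldha 3638, Aldoc 1434, Rgs2 1080, Hspd1 2752, Atp5f1b 6197, Rpl19 6731, Rpl7 5411, Ndrg2 1588 and Nnat 8563, and the lowest for Fos 105. Preconditioned array 6 had the highest for Ldha 3922, Aldoc 2068, Hspd1 2947, Atp5f1b 5733, Rpl19 6055, Rps24 7401, Gria2 1938, Ndrg2 2348, Pdgfra 1217 and Hbb 7973, and the lowest for Mcm6 102. Among other preconditioned arrays, the highest value was that of array 1 for Shc4 (92.9) and of array 7 for Fkbp5 (259), and the lowest that of array 9 for Per1 (57.3) and of array 10 for Hes5 (21.5). Among shams, the highest was that of array 6 for Sh2b3 (148) and of array 2 for Rpl7 (4189). The lowest was that of array 5 for Sgk1 (377) and Ccnd1 (152), of array 2 for Pla1a (18.3), of array 7 for Pla1a (16, the floor) and of array 9 for Hbb (3403).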

How the results depend on the processing

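Over 12 other settings and 20 fits without 1 array, the differences of the genes that the naming rule picked and of unnamed called probe sets gave 2728 values, of which 2669 kept their direction and side of the threshold, or moved by less than 1 SE, 53 lost a call, 1 gained one, 5 moved by more than 1 SE and 0 reversed. Most of these values belong to probe sets with no call to lose, and the 53 losses all fell among the 10 that were called. Outside these, Pfkfb3 passed without preconditioned array 10 (0.99 ± 0.21, adjusted p = 0.0489). The count of 10 called differences ran from 6 to 13 without 1 array, with 6 each without preconditioned array 1, preconditioned array 3 or sham 3. The other counts ran from 1211 to 2041 for the mean effect, 268 to 618 in numbers 1 to 5, 217 to 584 in numbers 6 to 10, 411 to 839 between preconditioned arrays, 71 to 296 between shams (71, 78, 84, 94, 124, 149 and 153 without sham 10, 2, 6, 1, 3, 5 and 8), 789 to 1324 near equal and 5 to 9 larger in numbers 1 to 5. Fitted on 20 arrays alone, with fewer residual degrees of freedom, they were 4, 1083, 238, 191, 465, 116, 717 and 4. Without preconditioned arrays 5 and 6 the mean effect was called for 984, numbers 6 to 10 for 265, preconditioned arrays between runs for 290, shams for 403, and 654 were near equal. Array weights called 435 between shams. The cause of these changes was not tested.

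Other scalings changed the called differences little: quantile normalization called 11 (all 10 and Rtn4r) and median centring 10 (9 of the 10 and Rtn4r, without Txnip). Without the filter 11 passed, among them Adm and Gpr176 but not Txnip. With the sample number as a replicate block, 13 differences were called, 8 of them among the 10, with 1395236_at and 1395424_at lost and Dusp1, Galnt1, Lgals3, Myc and 1370519_at gained. The block called 538 in numbers 1 to 5, 677 in numbers 6 to 10 and 2195 for the mean effect. Deviations from the group means of same-numbered arrays correlated at 0.079 to 0.238, with numbers 3 and 5 under 0.1. Every preconditioned array correlated best with the sham of its own number, and sex-linked transcripts matched within every number. Found for every number, these matches point to pairing in the data, which the stated design does not give. The labels do not say that a number pairs arrays, so they were treated as unpaired. Apart from the block, the p-values given here leave out any such pairing. The probe sets lost at a 60th percentile filter, Depp1 and 1395236_at, were not tested there.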

Other observations

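Several genes outside the naming rule, picked here for a small p-value, had effects of opposite sign in the 2 runs. They did not pass the test of the difference with the settings used for the results above. Rtn4r, the Nogo receptor that limits axon growth, gave 0.49 in numbers 1 to 5 and -0.30 in numbers 6 to 10 (difference 0.79 ± 0.17, adjusted p = 0.0675 with limma, and 0.0113 to 0.0494 in the fits that called it), and its other probe sets 0.58 and 0.25. Lgals3, a galectin of activated microglia and macrophages, gave -0.69 and 0.70 (difference -1.38 ± 0.32, adjusted p = 0.146 with limma, and 0.0434 with the sample number as a replicate block). Both probe sets of Mat2a, the enzyme that makes S-adenosylmethionine, leaned to numbers 6 to 10, with -0.32 and 0.35 for 1387737_at and -0.22 and 0.20 for 1371350_at (adjusted p = 0.237 and 0.255). Without preconditioned arrays 5 and 6 the difference of 1371350_at was -0.56 ± 0.08 (adjusted p = 0.000551).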
